A study of Mus musculus with 384 samples.

Results

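Pericytes are contractile cells that wrap the smallest blood vessels, and together with vascular smooth muscle cells they form the mural coat that sets vessel tone and steadies the endothelium. Pericytes are usually told from fibroblasts and from smooth muscle of other organs by a set of genes used together, since hardly any of these genes is restricted to them alone. In lung, Cox4i2, Higd1b and Notch3 are used for pericytes in this way, while Cspg4, Mcam, Kcnj8 and Abcc9 are shared with other contractile cells. The 9 genes described here were taken as such a named set, but with earlier results of these data known. They were Cspg4, Rgs5, Cox4i2, Higd1b, Notch3, Kcnj8, Abcc9, Trpc6 and Mcam, 9 of the 23422 genes counted. The lists of other marker genes used below were chosen in the same way.

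Lung cells were sorted singly into 96-well plates, by tdTomato for a pair of Lgr5-CreERT2;R26-Tom mice and by EGFP for a pair of Lgr6-EGFP-CreERT2 mice, in each case after depletion of cells with CD31, CD45, CD11b or TER119. In the Lgr5 mice the Lgr5 locus drives a tamoxifen-dependent Cre and tdTomato marks its descendants, whereas in the Lgr6 mice EGFP reports the Lgr6 locus itself, and the labels give an age of 7 to 10 weeks for most experiments. Each mouse gave 95 single-cell wells and 1 pool of cells, and reads were counted per gene with SmartSeq2, which amplifies whole polyadenylated transcripts. Of the 380 single-cell wells the authors kept 29 and 28 from Lgr5 mouse 1 and mouse 2 and 50 and 75 from Lgr6 mouse 1 and mouse 2, called kept cells here.

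The kept cells held from 9748 to 4538878 counted reads, with mouse medians of 263129, 272729, 332588 and 1537593 in that order. The lines therefore differed in depth, since both Lgr6 medians lay above both Lgr5 medians. Lgr5 reads were found in 23 of 29, 21 of 28, 11 of 50 and 28 of 75 kept cells and Lgr6 reads in 8, 9, 13 and 26, so neither transcript marked its own line alone. Reads of tdTomato were found in every kept cell, because the authors' filter kept only cells with tdTomato above a limit. These cells included those of the Lgr6 mice, for which the labels name no tdTomato allele. Of the wells that were not kept, 75 had fewer than 2000 genes. Of the rest, 59 and 54 came from the Lgr5 mice and 4 and 6 from the Lgr6 mice. In the Lgr5 mice 31 and 23 of them held Ptprc (CD45) and Pecam1 (CD31) together at a TPM of at least 1, 9 and 9 held Ptprc only, 10 and 18 Pecam1 only and 9 and 4 neither.

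Kcnj8 and Abcc9 encode the pore (Kir6.1) and the regulatory sulfonylurea receptor (SUR2) of the ATP-sensitive potassium channel of vascular muscle, which relaxes vessels when it opens. The genes are neighbours on the minus strand of chromosome 6 of GRCm38, Kcnj8 at chr6:142564837-142571614 and Abcc9 at chr6:142587862-142702315, with 16247 bases between them. Trpc6, at chr9:8544142-8680741, encodes a cation channel that lets calcium into vascular muscle. The sequence before the starts of Kcnj8 and Abcc9 is shown because they were detected together in more kept cells than any other pair of members. That of Trpc6 is shown because it alone held a CArG box, the site of serum response factor in muscle genes. Stretches of unequal length were at hand for 7 members. The sequences are from RefSeq on GRCm38.p6, on the strand of the gene. They end where the gene begins in RefSeq or in GENCODE, whichever comes first. Capitals mark a CArG box (Trpc6) or the letters TGGGAA, the core of the Notch effector RBPJ (Abcc9), both searched on either strand.
Kcnj8, chr6:142571615-142571864: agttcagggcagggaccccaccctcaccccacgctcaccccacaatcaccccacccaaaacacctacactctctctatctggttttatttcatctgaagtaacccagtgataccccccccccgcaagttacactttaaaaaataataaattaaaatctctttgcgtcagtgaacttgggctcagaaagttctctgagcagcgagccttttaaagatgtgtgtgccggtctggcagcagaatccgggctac
Abcc9, chr6:142702316-142702524: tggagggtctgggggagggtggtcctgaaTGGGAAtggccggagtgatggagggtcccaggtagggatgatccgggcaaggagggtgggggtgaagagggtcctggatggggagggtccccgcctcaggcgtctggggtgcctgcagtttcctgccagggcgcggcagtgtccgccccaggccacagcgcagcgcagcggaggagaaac
Trpc6, chr9:8543892-8544141: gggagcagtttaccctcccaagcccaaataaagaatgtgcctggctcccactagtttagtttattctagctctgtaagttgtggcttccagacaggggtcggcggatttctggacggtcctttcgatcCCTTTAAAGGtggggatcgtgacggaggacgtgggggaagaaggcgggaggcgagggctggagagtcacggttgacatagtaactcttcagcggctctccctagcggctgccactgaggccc
In the 250 bases before the start, a CArG box stood in 1.47% and TGGGAA in 21.6% of 32851 promoters. Of the 7 members with a promoter in the reference table, Trpc6 held the only CArG box and Abcc9 the only TGGGAA; Cox4i2 and Higd1b were not among them.

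The members fell into a pair that was common in kept cells and 7 that were not. A gene was taken as detected in a cell when at least 1 read was counted. Kcnj8 was detected in 64.8% and Abcc9 in 61.5% of all kept cells, while Mcam was detected in 48 cells, Cspg4 in 36, Rgs5 in 18, Cox4i2 in 11, Notch3 in 4, Trpc6 in 4 and Higd1b in 1. The wells that the authors removed from the Lgr5 mice had another order, with Higd1b, Notch3, Cox4i2 and Trpc6 each in at least 16.7% of the wells with 2000 or more genes in either mouse.

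**Figure D1:**
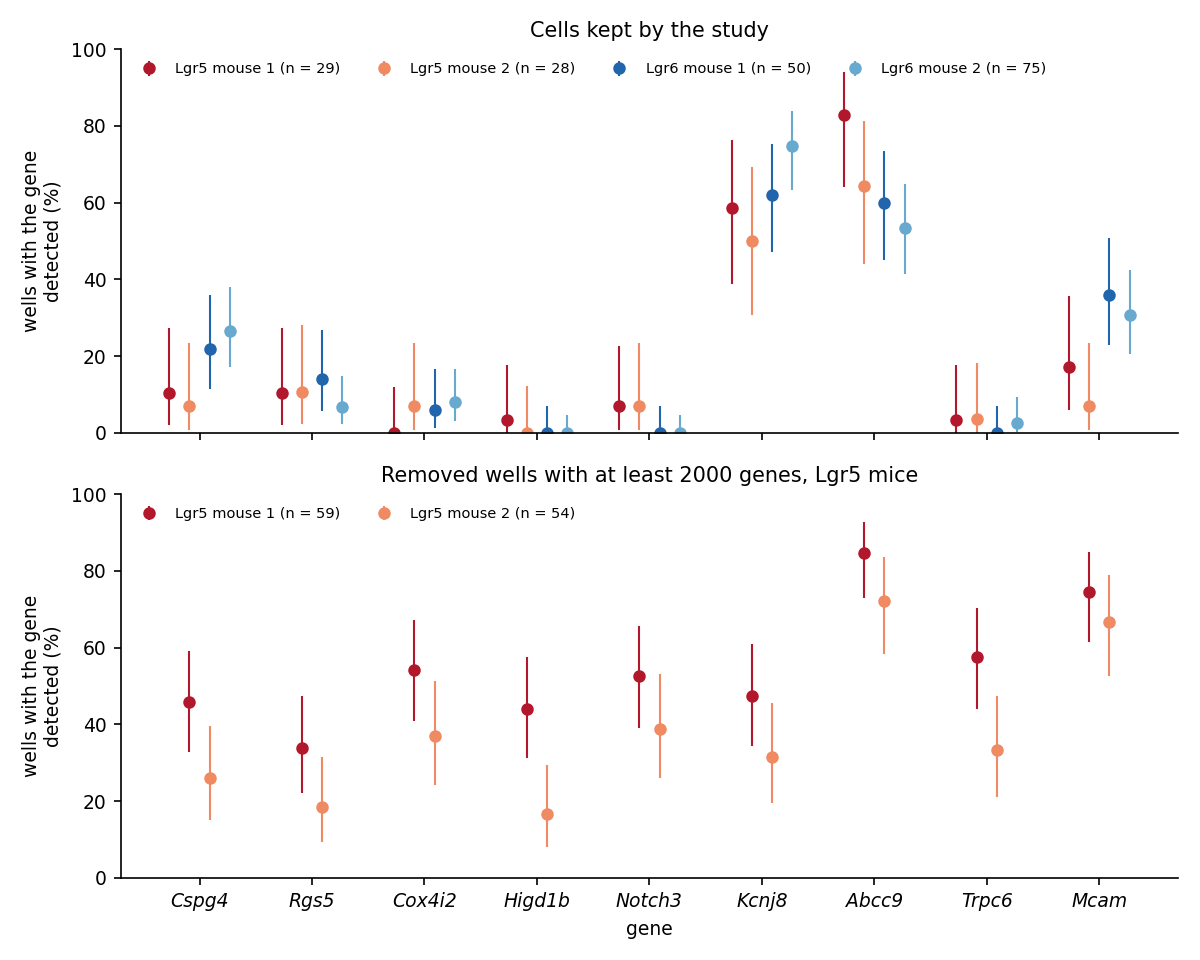
Share of wells (y axis, %) in which each of the 9 genes (x axis) had at least 1 read, for each mouse in kept cells (top, 29, 28, 50 and 75 cells) and in removed wells with at least 2000 genes of the Lgr5 mice (bottom, 59 and 54 wells). Points are mice and bars are exact (Clopper-Pearson) 95% intervals, which cover counting error only; in kept cells Kcnj8 and Abcc9 stand above the other genes in every mouse, and in removed wells all 9 genes lie at 16.7% or more.

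Kcnj8 had the highest level of the members in every mouse. Its mean log2(TPM + 1) over kept cells, a level that takes transcript length into account, was 4.66 and 3.76 in the Lgr5 line, against 5.46 and 6.29 in the Lgr6 line. Abcc9 came next, with mean levels of 3.36, 2.96, 2.89 and 2.48 in the same order. By this mean of log2 values every mouse had more Kcnj8 than Abcc9 and more Abcc9 than any of the other 7 genes. By the log2 of the mean TPM plus 1, Mcam exceeded Abcc9 in both Lgr6 mice (6.34 against 5.57, and 5.98 against 5.23), and Kcnj8 remained the highest in all 4. By the mean of log2 values Mcam followed in the Lgr6 mice (2.51 and 2.14) and, at 2.51, overlapped the lowest Abcc9 value.

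Kcnj8 was detected in 58.6% (17 of 29) and 50% (14 of 28) of kept Lgr5 cells, against 62% (31 of 50) and 74.7% (56 of 75) of kept Lgr6 cells. Both Lgr6 mice lay above both Lgr5 mice, by 14.02 percentage points on average (54.3% ± 6.10 against 68.3% ± 8.96, mean ± SD, n = 2; exact permutation test over mice, two-sided, p = 0.3333, the smallest that 2 mice against 2 allow). Where the gene was read, its level was high, with medians of 8.38, 7.48, 9.08 and 9.04 on the log2(TPM + 1) scale.

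Abcc9 was detected in 82.8% (24 of 29) and 64.3% (18 of 28) of kept Lgr5 cells, against 60% (30 of 50) and 53.3% (40 of 75) of kept Lgr6 cells. Here both Lgr6 mice lay below both Lgr5 mice, by 16.9 percentage points (73.5% ± 13.1 against 56.7% ± 4.71, mean ± SD, n = 2; exact permutation p = 0.3333). The order did not hold with a TPM above 1 as the limit (72.4%, 53.6%, 54% and 46.7%), where the mice of the lines overlapped.

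Both channel genes were detected together in 15 of 29, 11 of 28, 20 of 50 and 33 of 75 kept cells, and neither in 3, 7, 9 and 12. If the genes had been spread over the cells of a mouse independently of each other, 14.1, 9, 18.6 and 29.9 cells would hold both, so the observed number was slightly above this in each mouse. The related subunits of the same channel family, Kcnj11 (Kir6.2) and Abcc8 (SUR1), were each detected in 2 kept cells. The neighbouring pair on chromosome 6 was thus far more often read than the other pair in both lines, although a cell with Kcnj8 lacked Abcc9 reads in 2 of 17, 3 of 14, 11 of 31 and 23 of 56 instances.

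Kcnj8 and Abcc9 levels also went with different genes. Over kept cells within a mouse, the genes with the highest mean Pearson correlation with Kcnj8 among 9884 genes were Hhip, which encodes a secreted inhibitor of hedgehog signalling (mean r over the 4 mice 0.44), Pcsk5 (0.41) and Enpp2 (0.41). For Abcc9 these were Btg2 (0.32), Homez (0.31) and Foxr1 (0.31). In Lgr6 mouse 2 r was 0.13 for Btg2 and 0.11 for Homez, and in Lgr5 mouse 2 it was 0.16 for Homez. How each of these genes went with the other channel gene is not given, so a difference between the channel genes is not shown. The points of each correlation are cells of 1 mouse, which share their library preparation and differ in depth, and the values are descriptions without a test.

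Mcam and Cspg4 encode surface proteins of pericytes and other contractile cells, the adhesion molecule CD146 and the proteoglycan NG2, and lie at chr9:44134469-44142727 and chr9:56865033-56899870. Mcam was detected in 17.2% (5 of 29) and 7.14% (2 of 28) of kept Lgr5 cells, against 36% (18 of 50) and 30.7% (23 of 75) of kept Lgr6 cells. Cspg4 was detected in 10.3% (3 of 29), 7.14% (2 of 28), 22% (11 of 50) and 26.7% (20 of 75). The lines did not overlap for either gene, with the Lgr6 mice higher by 21.1 percentage points for Mcam and 15.6 for Cspg4 (exact permutation p = 0.3333 for each).

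In the sums of counts over kept cells, Mcam stood at 17.5 and 0.152 CPM (counts scaled to the size of the library) in the Lgr5 line, where mouse 2 had 2 reads, against 76.6 and 76.4 CPM in the Lgr6 line. One cell gave 97.3% of the reads in Lgr5 mouse 1. Cspg4 stood at 11.5 and 5.57 CPM in the Lgr5 line, against 40.5 and 64.2 CPM in the Lgr6 line. Both genes stood above both Lgr5 mice in both Lgr6 mice, as did 24% of the 14086 genes tested. The Lgr5 mice differed widely for Mcam.

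**Figure D2:**
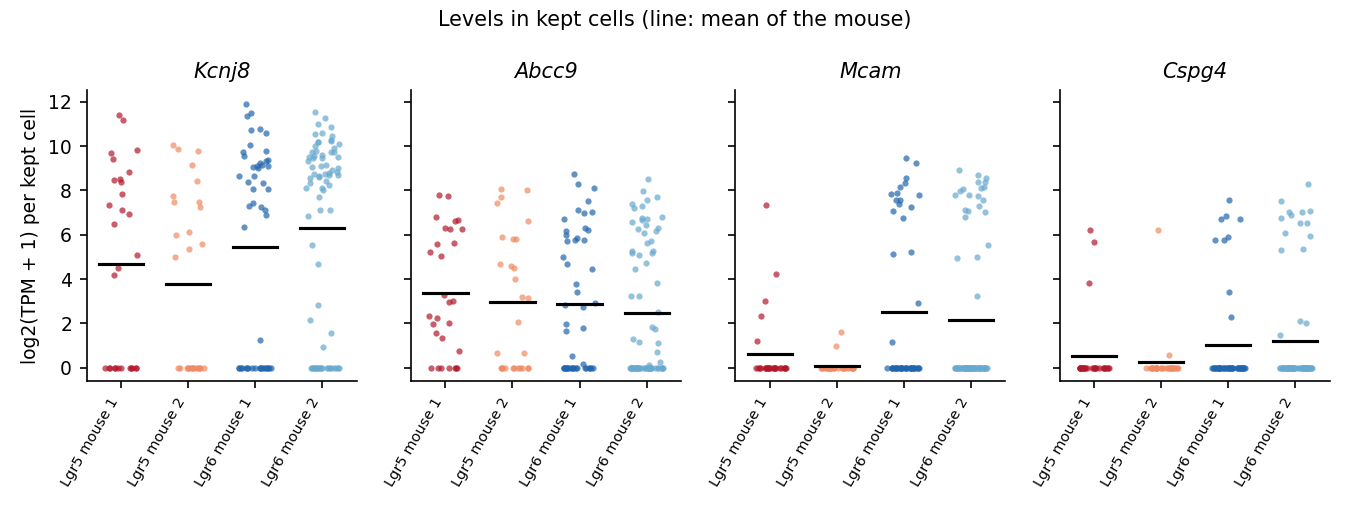
Level of Kcnj8, Abcc9, Mcam and Cspg4 as log2(TPM + 1) in each kept cell (points, spread sideways), by mouse, with the mean of the mouse as a black line. Many cells lie at 0 for every gene, Kcnj8 has the highest means (3.76 to 6.29), and high Mcam values are frequent in the Lgr6 mice and rare in the Lgr5 mice.

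In the Lgr6 mice the Mcam cells were cells with much Acta2, the smooth muscle actin gene. All 18 and 23 kept cells with Mcam reads had Acta2 levels of at least 10.0 and 10.1 on the log2(TPM + 1) scale, with medians of 12.7 and 13.1. In the 32 and 52 cells without Mcam the medians were 9.62 and 9.68 and the levels ran from 0 to 12.7 and 13.7. Cnn1, the calponin of differentiated smooth muscle, was detected in 16 of 18 and 21 of 23 cells with Mcam and in 8 of 32 and 18 of 52 cells without it. For Cspg4 the Acta2 medians of cells with and without it were 11.9 and 11.2 in Lgr6 mouse 1 and 13.03 and 10.5 in Lgr6 mouse 2. Pdgfra, a marker of fibroblasts, was detected in 0 of 18 and 3 of 23 cells with Mcam and in 7 of 32 and 8 of 52 cells without it. In the few Mcam cells of the Lgr5 mice Acta2 was detected in 2 of 5 and 1 of 2, with medians of 0 and 3.8 against 3.06 and 6.50 in cells without Mcam. The highest Acta2 level with Mcam was 12.97 in Lgr5 mouse 1, against 10.44 without it. In Lgr5 mouse 2 these values were 7.61 and 10.43. With so few Mcam cells, the Lgr5 mice cannot show whether they share the pattern of the Lgr6 mice.

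By the likeness measure given above, the genes nearest to Mcam were Sbspon (mean r 0.54), Lims2 (0.52) and Postn (0.51). For Postn r was 0.07 in Lgr5 mouse 1 and 0.83 in Lgr5 mouse 2, where 2 cells held Mcam with 2 reads in all. Those nearest to Cspg4 were Elmod3 (0.42), Zc3h18 (0.42) and Sh3rf2 (0.40), but for Elmod3 r was 0.996 in Lgr5 mouse 2, where 2 cells held Cspg4, and -0.13 and 0.04 in the Lgr6 mice, and for Sh3rf2 it was 0.996 in Lgr5 mouse 2 and -0.09 in Lgr5 mouse 1.

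Rgs5, at chr1:169655501-169695813, encodes a regulator that shortens signals from G protein-coupled receptors in vessel walls. It was detected in 10.3% (3 of 29) and 10.7% (3 of 28) of kept Lgr5 cells, against 14% (7 of 50) and 6.67% (5 of 75) of kept Lgr6 cells, and the lines overlapped (exact permutation p = 1). The amounts were not alike: 5 reads in all in each Lgr5 mouse, against 603 and 786 in the Lgr6 mice, or 0.478 and 0.381 against 21.6 and 6.51 CPM. Single cells gave 46.6% and 63.2% of the reads of the Lgr6 mice.

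Notch3, at chr17:32120820-32166852, encodes the Notch receptor that maintains mural cells of arteries. It was detected in 2 of 29 and 2 of 28 kept cells of the Lgr5 mice, with 3 and 16 reads in all, but not in any of the 50 and 75 kept Lgr6 cells. With the cells of both Lgr6 mice pooled, a count of 0 allows a share of up to 2.40%. This limit takes cells as independent and leaves out variation between mice. Its relative Notch2 was detected in 18, 14, 31 and 51 kept cells of the 4 mice, so a receptor gene of the family was commonly read in the same libraries.

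Cox4i2 and Higd1b, at chr2:152754173-152765037 and chr11:102835849-102838040, encode mitochondrial proteins, an isoform of a cytochrome c oxidase subunit found mostly in lung and a member of the hypoxia-inducible domain family. Cox4i2 was detected in 0 of 29, 2 of 28, 3 of 50 and 6 of 75 kept cells. Higd1b was detected in 1 kept cell, in Lgr5 mouse 1, with a single read. The common isoforms Cox4i1 (25, 22, 46 and 66 cells) and Higd1a (10, 8, 20 and 26 cells) were read in most or many of the same cells. Trpc6 was detected in 1, 1, 0 and 2 kept cells, and 88.8% of its 366 reads in Lgr6 mouse 2 came from 1 cell.

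Counts summed over the kept cells of each mouse were compared between the lines with edgeR's quasi-likelihood test over all genes. No member passed a Benjamini-Hochberg adjusted p of 0.05, and 0 of the 14086 genes tested (0%) did. At an unadjusted p under 0.05, 1312 genes (9.31%) passed, 5.25% higher and 4.06% lower in the Lgr6 mice. Of the 9 members, 7 had enough reads for the test and 2 of these, both higher in the Lgr6 mice, passed the unadjusted limit. Rgs5 differed by 5.02 on the log2 scale (SE 1.69, adjusted p = 0.396) and Cspg4 by 2.62 (SE 0.95, adjusted p = 0.44).

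Mcam differed by 3.12 (SE 1.68, adjusted p = 0.66) and Kcnj8 by 0.80 (SE 0.48, adjusted p = 0.701) in the same fit, while Abcc9 stood at -0.23 (SE 0.57, adjusted p = 0.933). Without Lgr5 mouse 1 the Mcam difference was 8.96 and without Lgr5 mouse 2 it was 2.04, and for Kcnj8 these values were 1.42 and 0.28. With DESeq2, 567 genes (4.03%) and 1 member, Rgs5, passed an adjusted p of 0.05 (log2 difference 4.93, adjusted p = 0.0155). The smooth muscle genes stood beside the members: all 8 of the fixed list (Acta2, Tagln, Myh11, Cnn1, Des, Actg2, Mylk, Actc1) were higher in the Lgr6 mice in edgeR and 4 passed the unadjusted limit, with Acta2 at 2.73 (adjusted p = 0.327). Whether the members' differences would remain among cells with like amounts of smooth muscle transcripts was not tested.

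In the share of kept cells, 6 members did not overlap between the lines, 3 higher in the Lgr6 mice (Cspg4, Kcnj8, Mcam) and 3 lower (Notch3, Abcc9, Trpc6). Over the 19715 genes read in kept cells 40.8% did not overlap, 12.7% higher and 28.1% lower. In mean level, 5 members did not overlap, with Cspg4, Kcnj8 and Mcam higher and Notch3 and Abcc9 lower in the Lgr6 mice, beside 42.4% of 19667 genes, 15.8% higher and 26.6% lower. When each cell was thinned to 99000 reads, with 1, 3, 13 and 2 shallower cells left out, Mcam kept the largest difference, at 9.90% and 3.06% of Lgr5 cells against 32.2% and 28.4% of Lgr6 cells, and Abcc9 and Trpc6 overlapped.

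Of the other mural genes fixed as a list, 16 were in the files and 14 had enough reads for the test between the lines. None passed the adjusted limit, and at the unadjusted limit 4 were higher (Foxs1, Itga7, Lamc3 and Postn) and 3 lower (Art3, Ebf1 and Nrip2) in the Lgr6 mice. Pdgfrb, the receptor by which endothelial cells recruit pericytes, was detected in 5, 8, 18 and 21 kept cells and had a log2 difference of -0.14 (SE 0.94, adjusted p = 0.975). Vtn, the vitronectin gene, was read in 0 kept cells, which allows a share of up to 1.65% pooled over the 4 mice. Of the remaining lists, the genes past the unadjusted limit were 1 higher and 1 lower of 8 fibroblast genes tested, 1 lower of 3 endothelial, 1 lower of 1 immune, 2 lower of 8 epithelial, 1 lower of 2 Schwann cell, 3 lower of 5 erythroid, 1 higher of 11 related genes and 0 of 6 housekeeping genes. Whether RNA of these other cells has a part in the members' differences was not tested.

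Kept cells carried few members together. The number detected per cell ran from 0 to 5, and 51 cells (28.02%) held 3 or more. By mouse these were 5 of 29 (17.2%, Clopper-Pearson 95% interval 5.85% to 35.8%), 5 of 28 (17.9%, 6.06% to 36.9%), 18 of 50 (36%, 22.9% to 50.8%) and 23 of 75 (30.7%, 20.5% to 42.4%). At 4 or more there were 20 cells, at 5 there were 4, and 0 held 7 or more. Pooled over the 4 mice, this count of 0 allows a share of up to 1.65%. Over the cells deep enough to be thinned to 99000 reads, the expected share with 3 or more was 22.4%, with 12.9%, 9.87%, 33.4% and 24.8% by mouse. Most of these cells held the common members: of the 5 least detected genes (Rgs5, Cox4i2, Higd1b, Notch3 and Trpc6), 35 kept cells carried at least 1, 3 carried 2 and 0 carried 3 or more.

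**Figure D3:**
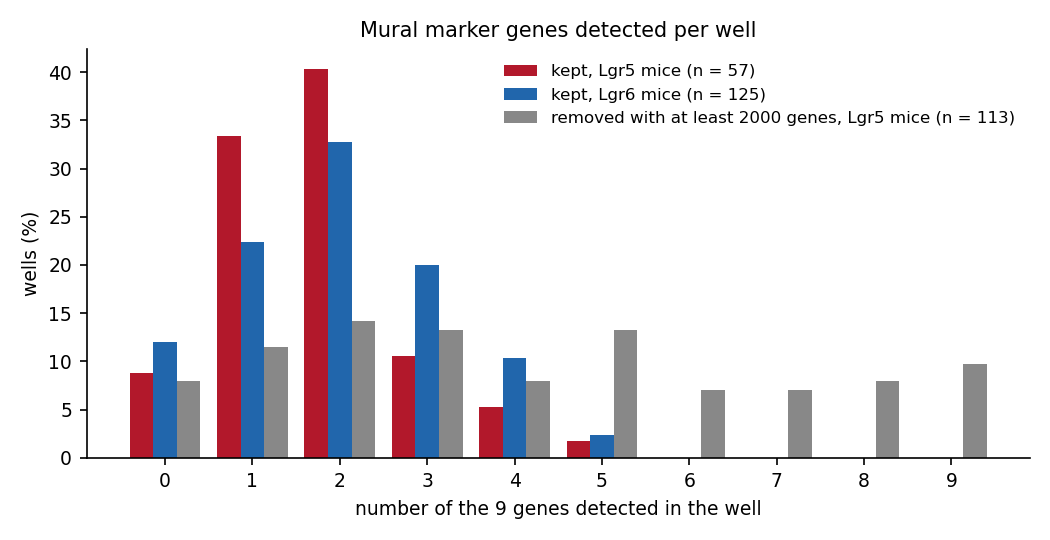
Share of wells (y axis, %) by the number of the 9 genes detected in the well (x axis), for kept cells of the Lgr5 mice (57), kept cells of the Lgr6 mice (50 and 75) and removed wells with at least 2000 genes of the Lgr5 mice (59 and 54). Kept cells stop at 5 genes, whereas removed wells extend to 9.

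The 3 kept cells with a pair of these rarer genes did not share the same pair. One in Lgr5 mouse 1 held single reads of Rgs5 and Higd1b beside Kcnj8, Abcc9 and Mcam. One in Lgr5 mouse 2 held 57 reads of Cox4i2 and 8 of Notch3, with 15 of Kcnj8 and 1 of Mcam. The third, in Lgr6 mouse 1, held 11 reads of Cox4i2, 563 of Kcnj8 and 65 of Abcc9 beside its Rgs5 reads, and had no Acta2 reads.

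Among the 4 kept cells with 5 members, 3 came from Lgr6 mouse 2. Each of these had all 8 smooth muscle genes of the list and none of the 8 endothelial and 6 immune genes. The fourth such cell, in Lgr5 mouse 1, was that with single reads of Rgs5 and Higd1b, and held 6 of 8 smooth muscle, 2 of 8 endothelial, 0 of 6 immune and 5 of 8 epithelial genes, with Scgb1a1 at 13.53 and Sftpc at 9.82, and 6492 genes, the most of any kept cell of that mouse. The Acta2 levels of the 3 Lgr6 cells were 13.1, 13.5 and 12.8 on the log2(TPM + 1) scale. The cells expected under independence were computed within each mouse and summed over the line. Of pairs with at least 1 such cell, 12 of 16 in the Lgr6 mice and 6 of 13 in the Lgr5 mice exceeded that number. In the Lgr6 mice the largest proportional excess among pairs with 10 or more expected cells was that of Cspg4 and Mcam, with 15 cells against 10.1 expected.

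The removed wells of the Lgr5 mice differed from this. Of the 59 and 54 with at least 2000 genes, 75 held 3 or more members, 28 held 7 or more (23 in mouse 1 and 5 in mouse 2) and 11 held all 9 (10 and 1). Of the 59 and 54 wells, 57 and 38 were deep enough to be thinned to 99000 reads, and 2 and 16 were left out. After thinning, an expected 64.8% and 51.2% held 3 or more, against 12.9% and 9.87% in kept cells of the same mice. Before thinning, at least 3 of the 5 least detected genes were present in 42 wells. Summed over both mice, all 36 pairs of members were found together more often than independence within each mouse gives. In mouse 2 alone this did not hold for Cspg4 with Rgs5 (2 against 2.59), Rgs5 with Higd1b (1 against 1.67) and Abcc9 with Trpc6 (13 against 13). Pairs of other genes were not compared. The 10 removed Lgr6 wells with at least 2000 genes held 3 members at most.

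By gene, Cox4i2 was detected in 54.2% (32 of 59) and 37.04% (20 of 54) of the removed wells of the 2 Lgr5 mice, against 0 of 29 and 2 of 28 kept cells. Notch3 was detected in 52.5% (31 of 59) and 38.9% (21 of 54), Trpc6 in 57.6% (34 of 59) and 33.3% (18 of 54), and Higd1b in 44.1% (26 of 59) and 16.7% (9 of 54). For each of these 4 genes both mice had a larger share in removed wells than in kept cells. Removed wells also held more genes of any kind, with medians of 9418 and 6503 against 4277 and 3640 in kept cells. How many of all genes had a larger share in removed wells was not counted, so the rise is not particular to these genes. Mcam was detected in 17.2% and 7.14% of kept cells and 74.6% and 66.7% of removed wells, and Kcnj8 in 58.6% and 50% of kept cells and 47.5% and 31.5% of removed wells.

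**Figure D4:**
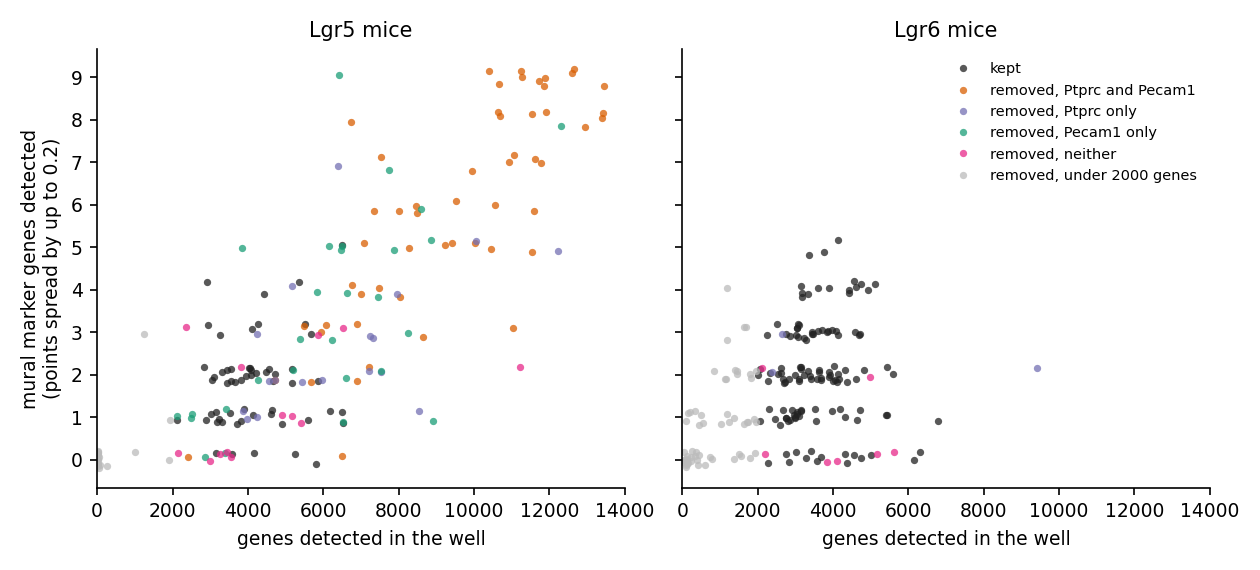
Number of the 9 mural marker genes detected (y axis) against the number of genes detected (x axis) in each of the 380 single-cell wells, Lgr5 mice left and Lgr6 mice right, coloured by whether the well was kept or by what it held when removed. Wells with 7 or more of the 9 genes are removed wells of the Lgr5 mice with 6404 to 13464 genes, most of them with Ptprc and Pecam1.

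Abcc9 was detected in 84.7% (50 of 59) and 72.2% (39 of 54) of removed wells, slightly above its shares of kept cells.

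The sums over wells were compared next. From kept to removed wells of Lgr5 mouse 1 and mouse 2, Notch3 went from 3 and 16 reads to 1127 and 240, or from 0.34 and 1.48 to 35.3 and 14.3 CPM. Higd1b went from 1 and 0 reads to 510 and 75. Kcnj8 went from 422 and 210 to 26.97 and 45.1 CPM, and Abcc9 from 136.4 and 322.7 to 65.5 and 64.9, so that both were lower in the removed wells of both mice, for Abcc9 in contrast to its share of wells. Cspg4 stood at 13.6 and 6.77 CPM in kept and 13.3 and 7.29 in removed wells. Its share was nevertheless larger beyond the kept cells: 10.3% and 7.14% of kept cells, against 31.6% and 16.8% of all single-cell wells of these mice.

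In an edgeR fit of removed against kept wells with the mouse as a block, made after the wells had been looked at, 0 of 16348 genes (0%) and no member passed an adjusted p of 0.05, and 8.81% of genes passed the unadjusted limit, 6.01% higher and 2.8% lower in removed wells. At that limit 3 of the 9 members were higher, Higd1b, Notch3 (log2 difference 4.87, SE 1.68, adjusted p = 0.551) and Trpc6 (4.59, SE 1.69, adjusted p = 0.56), and 2 were lower, Kcnj8 (-3.09, SE 0.65, adjusted p = 0.365) and Abcc9 (-1.69, SE 0.56, adjusted p = 0.548). The fitted Higd1b difference is not given because kept cells held a single read. Without the wells that held Ptprc and Pecam1 together, 2 members, Higd1b and Kcnj8 (-2.92), passed the unadjusted limit beside 7.48% of genes, and Notch3 (3.15, unadjusted p = 0.23), Trpc6 (3.56, unadjusted p = 0.129) and Abcc9 (-1.10, unadjusted p = 0.131) no longer did in edgeR. Within single mice, with the Ptprc and Pecam1 wells included, Notch3 differed by 4.76 in mouse 1 and 2.63 in mouse 2, and Trpc6 by 2.85 and 3.29. These values have no test. They are log2 ratios of CPM plus 1, so they are not on the scale of the fitted differences. DESeq2 called 947 genes (5.79%) and 5 members, with Cox4i2, Higd1b, Notch3 and Mcam higher and Kcnj8 lower.

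Genes of other cell types moved with the members in these wells. All 8 endothelial and all 6 immune genes of the fixed lists had positive differences in the same fit, 7 and 6 of them past the unadjusted limit, but the filter had used Pecam1 and Ptprc themselves. All 8 smooth muscle genes had negative differences, 6 past the unadjusted limit. Of the 16 other mural genes 12 had positive differences and 4 passed the unadjusted limit, all upward (Foxs1, Heyl, Lamc3 and Vtn). Of the erythroid genes 3 of 5 tested were higher at the unadjusted limit (Hba-a1 by 7.61), of the 8 fibroblast genes 4 were lower, and of the 8 epithelial genes 1 was higher (Scgb1a1) and 1 lower (Sftpc). Vtn was read in 26 of 59 and 13 of 54 removed wells.

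The 28 wells with 7 or more members held 6404 to 13464 genes (median 11399), against 2109 to 6512 in kept cells of the same mice. Ptprc and Pecam1 were together in 24 of the 28. The wells held 6 to 8 of the 8 endothelial genes, 0 to 6 of the 6 immune genes, 3 to 8 of the 8 epithelial genes and 2 to 8 of the 8 fibroblast genes, and 7 to 15 of the 16 other mural genes. Sftpc and Scgb1a1, the secretory genes of alveolar type II and club cells, were read in all 28, and Cdh5, a cadherin of endothelium, in all 28. The mural gene Pdgfrb was read in all 28 as well, with a median level of 6.48. How far more than 1 cell in a well bears on the count of members was not tested.

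**Figure D5:**
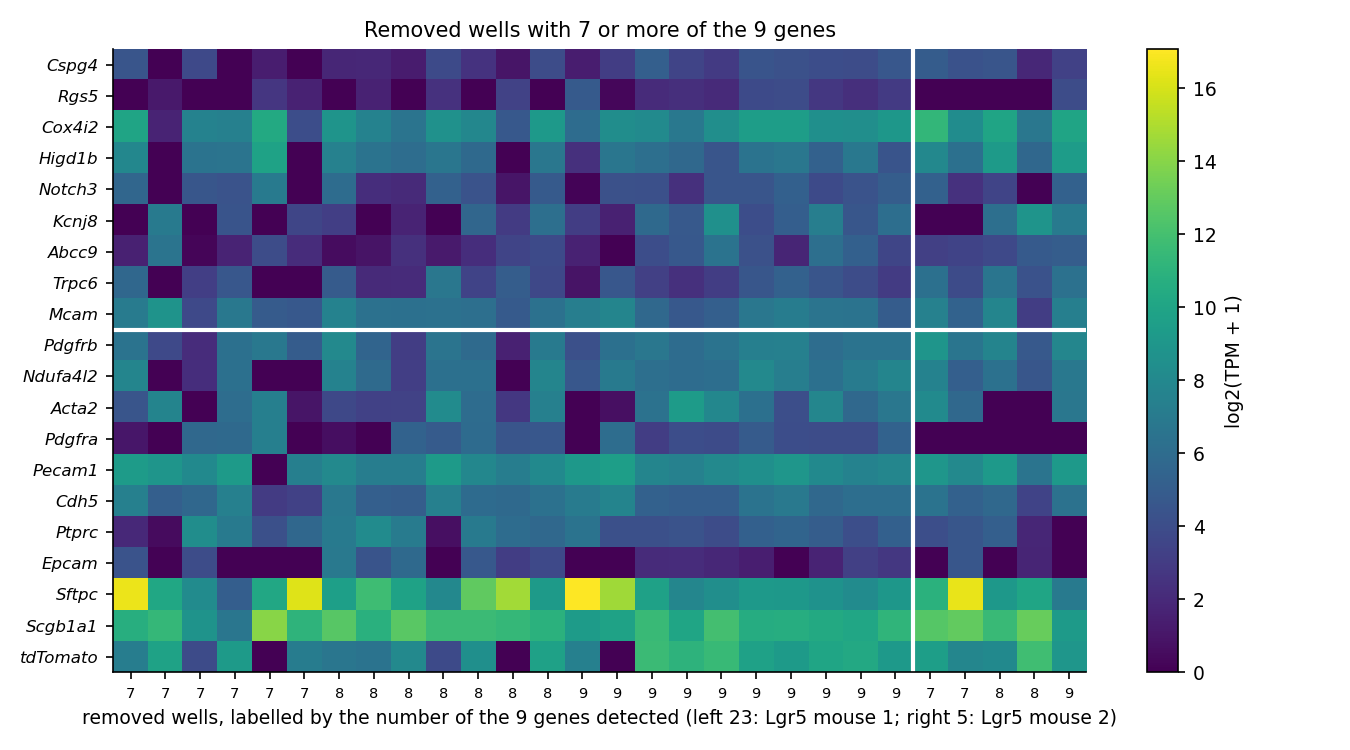
Level as log2(TPM + 1) (colour) of the 9 mural marker genes (above the white line) and of 11 genes of other cells or of the reporter (below it) in the 28 removed wells with 7 or more of the 9 genes, ordered by mouse and by number of members. Cox4i2, Notch3, Abcc9 and Mcam are read in all 28 wells, as are Pdgfrb, Cdh5, Sftpc and Scgb1a1. The lowest Notch3 and Abcc9 levels are 0 despite these reads.

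Within the removed wells, the number of members followed the number of genes detected, with a Spearman correlation over wells of 0.80 in Lgr5 mouse 1 (59 wells) and 0.73 in mouse 2 (54 wells). In kept cells the same correlation was 0.17, -0.16, 0.29 and -0.03 in the 4 mice. These are descriptions, and wells of 1 mouse are not replicates. The labels number the samples of a line and do not say where on a plate a number lay. In Lgr5 mouse 1, 19 of the 23 wells with 7 or more members, and all 10 with 9, had numbers from 49 to 96. So did 48 of the 95 wells of that mouse and 21 of its 31 wells with Ptprc and Pecam1. In Lgr5 mouse 2, by contrast, 4 of the 5 wells with 7 or more members, and the 1 with 9, were among the 47 with the lowest numbers.

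Without the wells that held Ptprc and Pecam1 together, 4 wells with 7 or more members remained among 59, 3 with Pecam1 only and 1 with Ptprc only. One of them, in Lgr5 mouse 2, held all 9 members in 80058 reads and 6431 genes, with 21 reads of Cox4i2, 15 of Higd1b, 12 of Notch3, 10 of Trpc6, 10 of Kcnj8, 10 of Abcc9, 18 of Mcam, 3 of Cspg4 and 1 of Rgs5. The same well held 7 of 8 endothelial genes, 0 of 6 immune genes, 4 of 8 epithelial genes and 11 of 16 other mural genes. Another, in Lgr5 mouse 1 with Pecam1 only, held 641 reads of Mcam and 7 of 8 endothelial genes. It had 1 read each of Cox4i2, Notch3 and Trpc6, 0 of Higd1b, and 7 of 16 other mural genes.

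The 4 pools gave few members. Rgs5, Cox4i2, Higd1b, Notch3 and Trpc6 had 0 reads in each. The pool of Lgr6 mouse 2 held 839 reads of Cspg4, 528 of Mcam, 382 of Kcnj8 and 3 of Abcc9, and that of Lgr6 mouse 1 held 70 of Mcam, 22 of Abcc9 and 11 of Kcnj8. The pool of Lgr5 mouse 1 held 44 reads of Cspg4 and 1 of Abcc9, and that of Lgr5 mouse 2 held none of the 9 genes in 204948 reads.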

How the data were processed

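Polyadenylated RNA of single cells was amplified with SmartSeq2 and sequenced as paired reads of 38 bases. Pseudo-alignment to mm10 transcripts (k-mers of 31) and summing to genes gave the counts that the authors deposited for every well, and the submitters' processing notes name bcl2fastq 2.17.1.14 and kallisto 0.43.0. The annotation release is not given in the sources used here. Tables of log2(TPM + 1) from the authors cover every well and, separately, the cells they kept; values of kept cells were identical in both. Their filter asked for 2000 genes, a tdTomato TPM over 32 and Ptprc and Pecam1 under a TPM of 1, and left out cells with very low housekeeping genes or an outlying, high number of genes. Deposited counts scaled to a common depth were not used.

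Samples were grouped by the mouse line in the labels, and the mouse was the replicate (2 per line). A gene was detected at a count of at least 1; 14 of 352 detections in kept cells had a TPM of 0, with at most 5 reads. Intervals are exact (Clopper-Pearson, 95%), and a count of 0 was given the limit of 3 counts over the pooled cells. Amplified reads are not independent molecules, so intervals cover counting error only. Counts were summed per mouse and tested with edgeR 4.0.16 (TMM, filterByExpr, glmQLFit, glmQLFTest; R 4.3.3) over all genes, with Benjamini-Hochberg adjustment at 0.05. Permutation tests used SciPy 1.17.1. The tests were checked on simulated data with 200 changed genes. Alternatives were DESeq2 1.42.0, limma 3.58.1, library size, no filter, other detection limits, thinning, all wells, a replicate block and leaving out each mouse. Named genes were the 9 members, the fixed lists of other mural, smooth muscle, fibroblast, endothelial, immune, epithelial, Schwann, erythroid, related and housekeeping genes, the 3 genes most correlated with each member detected in at least 20 kept cells, where the mean r reached 0.3, and the cells with the most members. The members and lists were chosen with earlier results of these data known. The comparison of removed with kept wells was added after seeing the data. Coordinates are from GENCODE vM21 on GRCm38, promoters from RefSeq on GRCm38.p6.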

Additional observations from a re-analysis of the deposited data

How the results depend on the processing

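No member passed an adjusted p of 0.05 between the lines in edgeR without any 1 mouse (0 to 0), with limma, or with a replicate block; DESeq2 called 1 (Rgs5) between the lines and 5 between removed and kept wells. The mice of the 2 lines share only a number (r = 0.036 between deviations of same-numbered mice). With the replicate block 1001 genes passed the unadjusted limit, against 1312, and Trpc6 turned to -0.64. Members past the unadjusted limit between the lines numbered 2, but 4 without Lgr5 mouse 1 (beside 14% of all genes), 0 without Lgr6 mouse 1 (4.95%), 1 without Lgr6 mouse 2 (5.34%), 1 with the block (7.11%) and 6 over all wells (23.1%). Cells with 3 or more members were 19.8% with at least 5 reads as the limit and 25% to 30.1% without each mouse in turn. The log2 difference between the lines changed sign for Cox4i2 with DESeq2 (-0.053), all 380 wells (-3.27), wells with 2000 genes (-3.07), these without Ptprc and Pecam1 wells (-1.22), without Lgr5 mouse 1 (-0.91) and without Lgr6 mouse 2 (-0.48), within a range of -0.91 to 10.00 without each mouse. It did so for Abcc9 with the same 3 sets of wells (0.61, 0.50 and 0.15), without Lgr5 mouse 2 (0.41) and without Lgr6 mouse 2 (0.01), within a range of -0.70 to 0.41, and for Trpc6 with limma (-0.0034, and -0.56 with a pseudocount of 0.1) and the 3 sets (-2.37, -2.36 and -0.99). Between removed and kept wells Cspg4 turned to -0.053 with DESeq2 and -1.45 without Ptprc and Pecam1 wells. Differences in share turned over all wells for Cspg4 (-4.21), Cox4i2 (-23.7) and Mcam (-22.1), and for Rgs5 with 5 reads (8) and with thinning (5.27); differences in level turned over all wells for Rgs5 (-0.22), Cox4i2 (-1.72) and Mcam (-0.73). The causes were not tested.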
